A study of Mus musculus with 4 samples.

Results

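The cells described here are 1299 of 32872 barcodes (3.95%) from the small-intestinal epithelium of 25-week-old mice. They were picked by detected transcripts: at least 3 of the 6 genes Thsd7a, Ptprt, Habp2, Pdzrn3, Acvr1c and Kcnma1 had a UMI, and Chga plus Chgb, which mark enteroendocrine cells, had fewer than 2 UMIs together. A UMI is a molecular tag that counts 1 captured RNA molecule. The barcodes considered had at least 1000 UMIs, at least 500 genes and less than 30% of UMIs from mitochondrial genes. Below, cells that meet these criteria are called members.

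The study compared TrnA G5081A point mutant mice with wild type mice, in 2 libraries of each genotype. The allele is a base change in the mitochondrial gene for the alanine tRNA. The mutation load, the share of mitochondrial DNA copies that carry the change, was 77% in mutant 1 and 81% in mutant 2. Mutant 1 and wild type 1 form set A, and mutant 2 and wild type 2, both labelled male, form set B; each set was processed with its own software version. Cells were sorted with CD326, an epithelial surface protein, and with CD45, CD31 and TER-119, which mark blood and vessel cells. Acute colitis appears in the title of the series, while the sample labels give no colitis treatment. The labels do not say that replicate libraries came from separate animals beyond their mutation loads and sexes, so a p-value here speaks to library-to-library spread alone, part of which may be technical. Members numbered 435 in mutant 1, 353 in mutant 2, 174 in wild type 1 and 337 in wild type 2.

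By the marker genes, the members were mainly cells with the transcripts of Paneth cells. Clustering that left out the selection genes placed 716 members (55.1%) in 1 defensin-rich cluster with Paneth cell markers and 415 (31.9%) in 4 clusters with goblet cell markers. Another 138 (10.6%) lay in a small cluster of cells with few UMIs, in which the selection genes took their highest share of the RNA. This cluster was singled out as the unnamed cluster with the largest share of members. The remaining 30 members (2.31%) were spread over other clusters. The working label, rare Ptprt Thsd7a Habp2 epithelial cells, therefore covers cells of several clusters, and its genes were at their highest in the small low-UMI cluster.

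Paneth cells sit at the base of the small-intestinal crypts between the Lgr5-positive stem cells. They release granules of antimicrobial proteins, among them the alpha-defensins (Defa genes) and lysozyme (Lyz1), and they feed niche signals to the stem cells. Goblet cells secrete the mucus layer, built on the mucin Muc2, and share with Paneth cells an origin in progenitors that express the transcription factor Atoh1. Enteroendocrine cells come from the same progenitors and release hormones from granules that hold chromogranins, the products of Chga and Chgb.

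Of the selection genes, Thsd7a encodes a membrane protein with thrombospondin repeats, Ptprt a receptor protein tyrosine phosphatase, and Habp2 a hyaluronan-binding serine protease. Pdzrn3 encodes a ubiquitin ligase with PDZ domains, Acvr1c the activin receptor-like kinase ALK7, and Kcnma1 the pore subunit of the BK potassium channel. The label also names Sntb1, a syntrophin that binds the dystrophin complex, and Samd5, a protein with a SAM domain. On mouse build mm10, with GENCODE vM21 genes, Thsd7a (ENSMUSG00000032625) lies on chromosome 6 from 12311610 to 12749410 and Ptprt (ENSMUSG00000053141) on chromosome 2 from 161521990 to 162661147. Habp2 (ENSMUSG00000025075) lies on chromosome 19 from 56287137 to 56320822, and Pdzrn3 (ENSMUSG00000035357) on chromosome 6 from 101149609 to 101377897. Acvr1c (ENSMUSG00000026834) lies on chromosome 2 from 58267453 to 58357895, and Kcnma1 (ENSMUSG00000063142) on chromosome 14 from 23289431 to 24014491. Ptprt, the longest of the 6, spans 1139 kb, and Habp2, the shortest, 33.7 kb. The tables count UMIs per whole gene, so no exon, intron or isoform can be assigned.

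Depth differed between libraries and between members and other cells. The median UMI count per cell was 9861 in mutant 1, 11030 in mutant 2, 21250 in wild type 1 and 11236 in wild type 2. Members had a median of 26465 UMIs and the other cells 10494. Pairs of libraries shared 26 to 60 barcode sequences. Wild type 1, the deepest library, also had the most unusual mix of members: 67.8% of them lay in goblet clusters, against 22.4% to 32.4% in the other libraries.

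The member groups differed in depth and composition. Low-UMI members had a median of 3477 UMIs per cell, defensin-rich members 40208.5 and goblet-cluster members 18694. Defensin transcripts (22 genes whose symbol starts with Defa) took a median of 6.56% of UMIs in low-UMI members, 51.7% in defensin-rich members and 0.620% in goblet-cluster members, against 0.426% in cells that were not members. A defensin-rich member thus had about as many defensin UMIs as UMIs of all other genes together, and low-UMI members stood between the defensin-rich and the goblet-cluster members. This share lowers the CPM of every other gene in defensin-rich members, so the size of CPM gaps between member groups depends on that scale. The mitochondrial share was 10.6%, 1.51% and 3.25% in low-UMI, defensin-rich and goblet-cluster members. The nuclear RNA Malat1 took 1.16% of UMIs in low-UMI members, 0.0943% in defensin-rich members and 0.347% in goblet-cluster members. Ribosomal protein transcripts took 2.21%, 3.16% and 16.6% in the same order. A doublet caller marked 9.42%, 10.8% and 16.4% of these members and 6.93% of the cells that were not members. Marked cells were thus more frequent among members. The number marked in a library was fixed in advance by its count of barcodes, so these pooled shares also depend on the mix of libraries. The part of doublets in the goblet-cluster group was not tested.

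**Figure D1:**
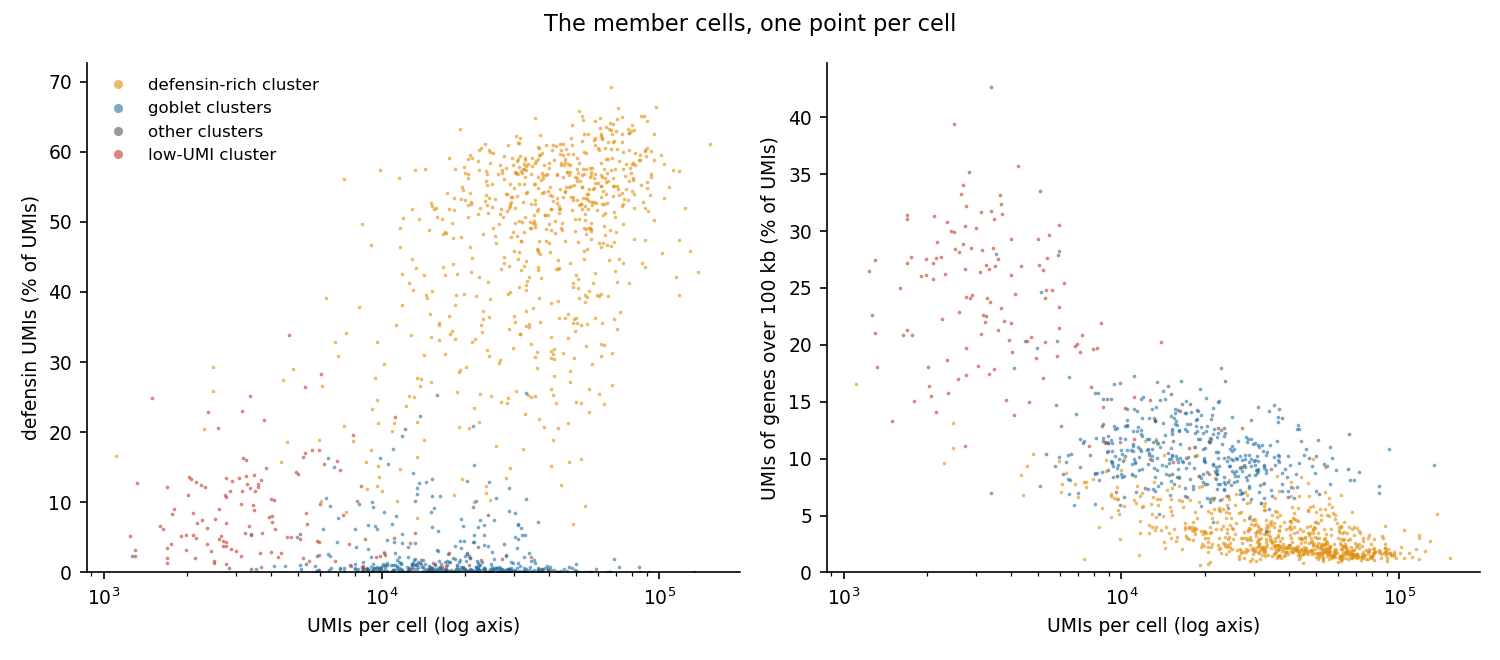
Each point is 1 member cell, coloured by the cluster group that holds it, with UMIs per cell on a log axis against composition measures of the same cell. The low-UMI members (median 3477 UMIs) form a cloud at low depth, and the defensin-rich members (median 40208.5 UMIs) lie at high depth with a median of 51.7% defensin UMIs.

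Members made up 60.5% of the 1183 cells of the defensin-rich cluster and 86.2% of the 160 cells of the low-UMI cluster. Among all filtered cells, the share that met the criteria was 1.03% of the 27232 cells with under 1% defensin UMIs and 3.63% of the 4213 cells with 1% to 5%. It was 47.2% at 5% to 10%, 50.5% at 10% to 20%, 52.5% at 20% to 40%, 70.6% at 40% to 60% and 64.8% above 60%. The step thus lay between the bins under and over 5% defensin UMIs. The bins differ in depth as well as in defensin share.

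Of the 6 genes, Thsd7a was detected in the fewest cells outside the members (0.386%). It had 305, 260, 786 and 250 CPM, the unit of a gene's share of all UMIs of the summed cells, in low-UMI members of mutant 1, mutant 2, wild type 1 and wild type 2. In defensin-rich members of the same libraries it had 30.4, 15.6, 24.7 and 12.2 CPM. In goblet-cluster members it had 10.1, 31.7, 3.71 and 5.99 CPM. The low-UMI values lay above all others, while the defensin-rich and goblet-cluster ranges overlapped. Enterocyte clusters had a mean of 0.260 CPM and enteroendocrine clusters 0.630 CPM. At least 1 Thsd7a UMI was found in 55.1% of low-UMI members and 33.8% of defensin-rich members, against 0.134% of enterocyte-cluster cells, whose median depth of 3424.5 UMIs was close to that of the low-UMI members. Because these genes chose the members, their levels are given as a description without a test. Each member needs UMIs of at least 3 of the 6 genes, which is a larger share of the RNA in a cell with few UMIs. The CPM order of member groups is thus partly set by the selection and by depth. Low-UMI members had a median of 12 UMIs of the 6 genes, and defensin-rich members 10.

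Ptprt had 424, 432, 366 and 488 CPM in low-UMI members of mutant 1, mutant 2, wild type 1 and wild type 2. Its mean was 427 CPM there, 38.8 CPM in defensin-rich members, 57.3 CPM in goblet-cluster members and 128 CPM in enteroendocrine clusters. Ptprt thus was higher in enteroendocrine clusters than in the defensin-rich or goblet-cluster members, with no overlap between libraries. Pdzrn3, also found in enteroendocrine clusters (89.1 CPM), averaged 248 CPM in low-UMI members, 20.4 CPM in defensin-rich members and 15.2 CPM in goblet-cluster members. Kcnma1 averaged 825 CPM in low-UMI members, 62.1 CPM in defensin-rich members and 236 CPM in goblet-cluster members. It was also present at 130 CPM in goblet-cluster cells that were not members and at 226 CPM in enteroendocrine clusters, so a Kcnma1 UMI alone does not set the members apart.

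Habp2 had 186, 300, 256 and 400 CPM in low-UMI members of mutant 1, mutant 2, wild type 1 and wild type 2, and means of 82.7 CPM in defensin-rich and 62.6 CPM in goblet-cluster members. It reached 3.84 CPM in enteroendocrine clusters and 0.962 CPM in enterocyte clusters. Habp2 was high in defensin-rich cells on either side of the selection, since defensin-rich cells that were not members averaged 60.8 CPM. Acvr1c averaged 587 CPM in low-UMI, 56.3 CPM in defensin-rich and 88.4 CPM in goblet-cluster members, against 47.8 CPM in enteroendocrine clusters and 15.6 CPM in enterocyte clusters.

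The label genes that the selection did not use were also highest in low-UMI members. The label was chosen with earlier results of these data known, and Sntb1 and Samd5 lead the genes of the low-UMI cluster. Their levels are therefore a description and no independent check. Sntb1 had 491, 963, 640 and 1226 CPM in low-UMI members of mutant 1, mutant 2, wild type 1 and wild type 2. It averaged 60.8 CPM in defensin-rich members and 8.92 CPM in goblet-cluster members, against 0.919 CPM in goblet-cluster cells that were not members. Samd5 averaged 601 CPM in low-UMI, 90.3 CPM in defensin-rich and 66.0 CPM in goblet-cluster members, against 5.31 CPM in goblet-cluster cells that were not members. Sntb1 was thus low in goblet-cluster members, while Samd5 was more than 10-fold higher in each member group than in those cells. For all 8 of these genes the lowest library of the low-UMI members was above the highest library of every other cell set plotted.

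**Figure D2:**
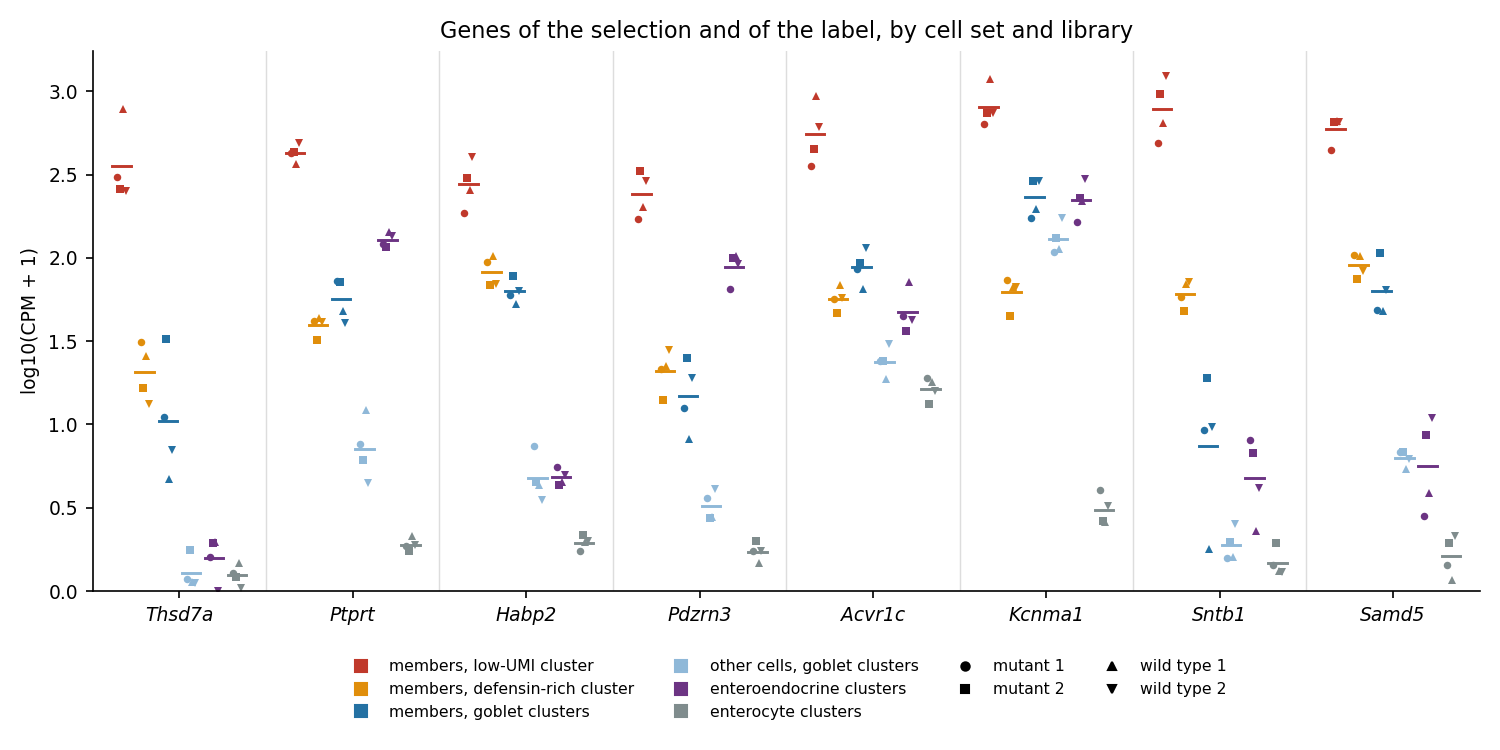
Level of the 6 selection genes and of Sntb1 and Samd5 in each cell set, in CPM on a log10 scale with 1 added; bars are the mean over 4 libraries, points are the libraries. Low-UMI members stand highest for all 8 genes, with Thsd7a at a mean of 400 CPM there and 20.7 CPM in defensin-rich members.

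How many of the 6 genes a cell showed went with the cluster. All 6 were found in 102 members, 4 or 5 in 642 and exactly 3 in 555. Of the members with all 6 genes, 69.6% were in the defensin-rich cluster, 26.5% in the low-UMI cluster and 2.94% in goblet clusters. Just inside the limit, the 555 members with exactly 3 genes included 295 goblet-cluster, 211 defensin-rich and 27 low-UMI cells. Just outside it, the 1871 cells with exactly 2 genes and the same limit on chromogranins included 1289 goblet-cluster, 170 defensin-rich and 19 low-UMI cells. The median defensin share was 2.80% inside the limit and 0.383% outside it. On the chromogranin side, 1030 members had no UMI of Chga or Chgb, and 215 of the 269 members with 1 such UMI were defensin-rich. Of the 70 cells that had at least 3 of the genes and exactly 2 chromogranin UMIs, and so were left out, 65 were also defensin-rich. In all, 237 cells with at least 3 of the genes were left out by the chromogranin limit, 146 of them in enteroendocrine clusters and 85 in the defensin-rich cluster.

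A deep cell shows a rare transcript more easily, so the selection was repeated after each cell had been thinned to the same number of UMIs. At 2000 UMIs per cell, 87 of 129 low-UMI cluster cells met it (67.4%, 95% exact binomial interval 58.6 to 75.4). Of the defensin-rich cells, 21 of 1174 met it (1.79%, 1.11 to 2.72), as did 18 of 5974 goblet-cluster cells (0.301%, 0.179 to 0.476) and 3 of 22890 cells of other clusters (0.0131%, 0.00270 to 0.0383). These intervals cover counting error only. At 5000 UMIs the shares were 70.8%, 10.5%, 2.11% and 0.0340% in low-UMI, defensin-rich, goblet and other clusters. Cells with fewer UMIs drop out, so the 70.8% is 34 of the 48 deepest of 160 low-UMI cluster cells (interval 55.9 to 83.0). At either depth the order of the clusters was the same. At 2000 UMIs the low-UMI cluster held 67.4% of the 129 cells that met the criteria, against 10.6% of members at full depth. The low-UMI cluster was singled out by its share of members, so its first place here was partly set by that choice. Few UMIs alone do not define it, since an enterocyte cluster had a lower median depth (2500 against 3235.5 UMIs). Before thinning, 716 of the defensin-rich and 415 of the goblet-cluster cells met the criteria.

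Apart from the selection genes, the low-UMI members were led by other genes with long spans. Chrm3, the M3 muscarinic acetylcholine receptor, had 1194, 1610, 3236 and 1730 CPM in low-UMI members of mutant 1, mutant 2, wild type 1 and wild type 2, and averaged 131 CPM in defensin-rich members and 12.5 CPM in enterocyte clusters. Plcb1, a phospholipase C that acts downstream of such receptors, had 1215, 1503, 2742 and 1813 CPM in the same low-UMI members, against means of 130 CPM in defensin-rich members and 9.44 CPM in enterocyte clusters. Both genes were higher in every low-UMI library than in any defensin-rich library, and wild type 1 was the highest of the low-UMI libraries for each. The scaffold gene Tanc2 averaged 931 CPM in low-UMI and 82.5 CPM in defensin-rich members, and the growth hormone receptor Ghr 1048 and 84.0 CPM. These genes helped to define the cluster and are given without a test.

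The low-UMI members also held Paneth cell transcripts. Lyz1 had 13034, 9407, 18188 and 7233 CPM in low-UMI members of mutant 1, mutant 2, wild type 1 and wild type 2, below the 48882 CPM mean of defensin-rich members and above the 407 CPM of enterocyte clusters. Defa24 averaged 24720 CPM in low-UMI members, 196686 CPM in defensin-rich members and 1936 CPM in enterocyte clusters, which are not known to make defensins and serve as the background. The intelectin gene Itln1 averaged 12260 CPM in low-UMI and 26604 CPM in defensin-rich members, and the defensin-processing protease Mmp7 992 and 1655 CPM. Summed over the 10 genes of the Paneth cell list, low-UMI members had 66231, 97826, 114834 and 83468 CPM in mutant 1, mutant 2, wild type 1 and wild type 2. Every Paneth cell gene named here was thus well above its level in enterocyte clusters. Among the other marker lists, the summed level in low-UMI members ranged from 0 to 41.7 CPM for enteroendocrine cells, against 115 to 195 CPM in the cells that were not members, and from 0 to 24.0 CPM for tuft cells, against 50.6 to 220 CPM. For T cells it ranged from 0 to 15.5 CPM, against 30.9 to 92.1 CPM. Goblet cell markers summed to 3501 to 9469 CPM in low-UMI members, against 14706 to 27740 CPM in the cells that were not members. Neuron markers summed to 15.5 to 54.8 CPM, above the 6.45 to 11.7 CPM of the cells that were not members, with Uchl1 and Tubb3 at 0. The interstitial cell of Cajal list summed to 183 to 676 CPM, against 28.9 to 37.3 CPM, nearly all of it Kit, with Etv1 at 0. The list of BEST4 or CFTR-high cells summed to 548 to 1263 CPM, against 649 to 870 CPM, ranges that overlap, with the chloride cotransporter gene Slc12a2 as the largest term. Neurod1 and Neurog3, which define enteroendocrine cells, were both at 0 CPM in all low-UMI libraries. The low-UMI members of a library held between 54705 (wild type 1) and 250240 (mutant 2) UMIs in all. Their enteroendocrine, tuft, T cell and neuron sums therefore rest on few UMIs, and a 0 there does not show absence.

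Markers of crypt neighbours were mixed. Lgr5, a stem cell marker, averaged 484 CPM in low-UMI and 50.2 CPM in defensin-rich members, and Kit, a receptor kinase known from Paneth and goblet cells, 340 and 41.1 CPM. Olfm4, the other classical stem cell marker, averaged 1763 CPM in low-UMI members, with 201 CPM in wild type 1 and 3069 CPM in mutant 2, against 583 CPM in defensin-rich members and 7453 CPM in stem cell clusters. Muc2 averaged 1241 CPM in low-UMI members and 863 CPM in defensin-rich members, against 257 CPM in enterocyte clusters.

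The gap between low-UMI and defensin-rich members grew with the genomic span of a gene. The median log2 ratio of low-UMI over defensin-rich members was 1.03, 1.41, 1.67 and 1.32 in mutant 1, mutant 2, wild type 1 and wild type 2 for genes over 100 kb. For genes of 10 to 100 kb it was 0.51, 0.71, 0.97 and 0.72, and for genes under 10 kb 0.07, 0.02, -0.47 and 0.07. The order by span was the same in all 4 libraries. Genes over 100 kb took a median of 22.6% of UMIs in low-UMI members, 2.69% in defensin-rich members and 10.1% in goblet-cluster members. Of the 8 genes above, Habp2, Samd5 and Acvr1c span less than 100 kb. The part of gene span, of the higher mitochondrial share (10.6%) and of the higher Malat1 share (1.16%) in the levels of low-UMI members was not tested. Its 50 leading genes held 0 genes of the Paneth cell list and fewer than 3 of any other marker list, so it was given no cell type name.

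**Figure D3:**
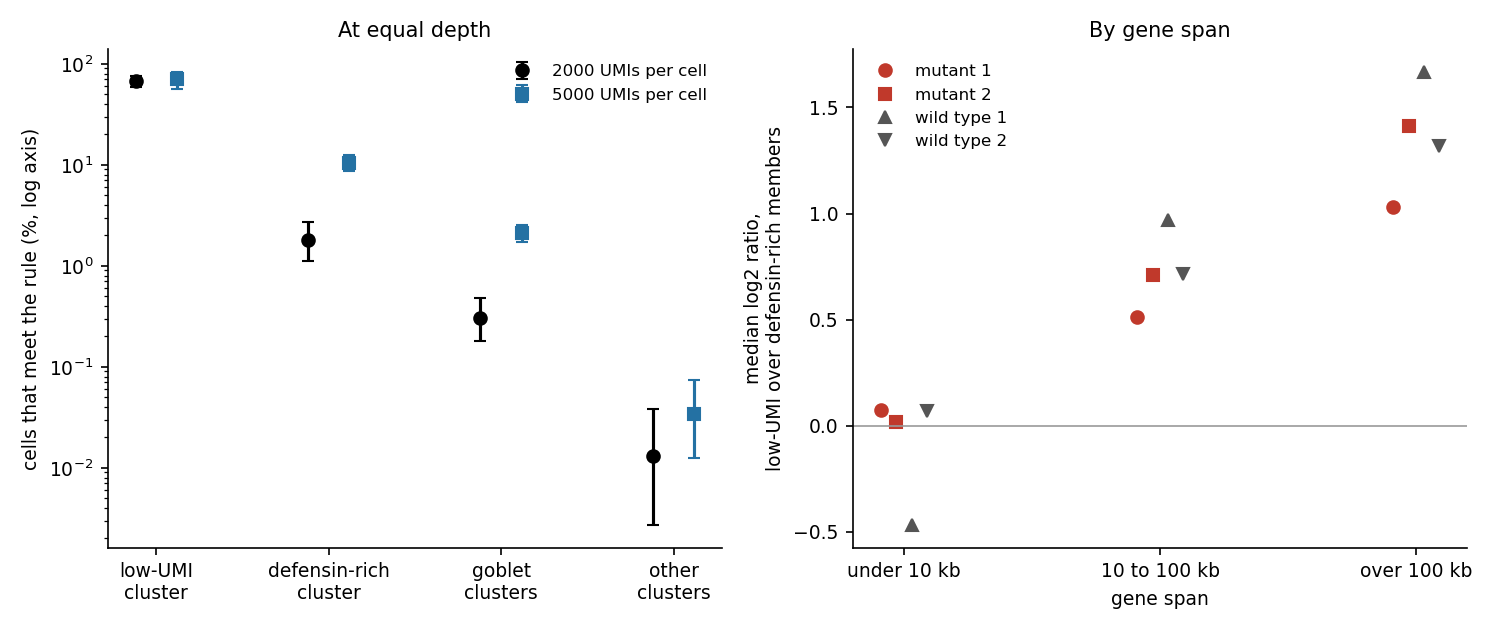
Left, the percentage of cells of each cluster group that meet the selection after thinning to 2000 or 5000 UMIs, on a log axis with 95% exact binomial intervals; right, the median log2 ratio of low-UMI over defensin-rich members for genes grouped by span, with 1 point per library. The low-UMI cluster lies highest at both depths (67.4% and 70.8%), and the ratio is largest for genes over 100 kb in every library (1.03 to 1.67).

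Members were then set against all other filtered cells of the same library, with UMIs summed per library and library as a block. Low-UMI members supplied 193414, 250240, 54705 and 239887 of the member UMIs in mutant 1, mutant 2, wild type 1 and wild type 2. All members together supplied 9712250, 12953505, 7192425 and 11310927, and defensin-rich members 7099764, 11112646, 3200929 and 9476576. Tests on members as a whole, here and below, therefore say little of low-UMI members. The 6 selection genes, Chga, Chgb, Sntb1 and Samd5 were kept out of this test. By edgeR's quasi-likelihood test, 7223 of 16183 genes (44.6%) passed a Benjamini-Hochberg adjusted p of 0.05, 3203 (19.8%) higher and 4020 (24.8%) lower in members. The members were chosen on the same cells' counts and were deeper, and against other cells of like depth 7517 genes passed. The split by direction depended on scaling. When levels were set relative to total UMIs, of which the defensins took a large share in members, 602 genes were higher and 12815 lower, and the median log2 ratio of all genes was -1.08 in place of -0.08. For members against other cells and against chromogranin-positive cells, a direction below therefore holds on both scales unless it is said to differ.

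The genes that were highest in members were Paneth cell products. Of the 25 named genes with the highest ratios, 15 were Defa genes and 20 lay on chromosome 8, where the mouse defensin cluster is. Defa24 had 120575, 183758, 81246 and 209577 CPM in members of mutant 1, mutant 2, wild type 1 and wild type 2, against 5625, 14792, 1690 and 8937 CPM in the other cells. The groups did not overlap, and wild type 1 was lowest on both sides. Defa30 had the highest ratio, with 54369 ± 27577 CPM in members and 2694 ± 2080 CPM in other cells (SD, n = 4 libraries), a log2 ratio of 5.68 (SE 0.30, edgeR adjusted p = 3.30e-08). Defensin genes are near-identical copies, so the split of reads among single Defa genes is uncertain.

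Lyz1 had 37672, 31470, 35214 and 28753 CPM in members of mutant 1, mutant 2, wild type 1 and wild type 2, against 1569, 2517, 794 and 1411 CPM in other cells. Its log2 ratio was 5.52 (SE 0.23, edgeR adjusted p = 5.62e-09), and no library of members came near one of the other cells. The mucosal pentraxin Mptx2 (log2 5.48), the ribonuclease Ang4 (5.40), and the lipase genes Pnliprp2 (5.55, 325 and 15.1 CPM in members and other cells) and Clps (5.53, 2122 and 111 CPM) were in the same range. Clps encodes colipase, the cofactor of pancreatic lipase. In total, 10 of 10 genes of the Paneth cell list were higher in members, with a median log2 ratio of 5.47, or 4.47 on total UMIs.

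The lowest ratios among abundant genes belonged to hormones and enterocyte genes. The log2 ratio was -3.01 for Sst (somatostatin), -2.87 for Pyy (peptide YY), -2.79 for Gip, -2.61 for Nts (neurotensin) and -2.57 for Gcg (proglucagon). The selection left out cells by Chga and Chgb, which hormone-producing cells express, so these values are partly set by it. Sst and Gip did not pass when other cells of like depth were the comparison (log2 -0.38, edgeR adjusted p = 0.206, and log2 -0.96, adjusted p = 0.263). The fatty acid-binding protein gene Fabp1 had a log2 ratio of -2.06, the sucrase-isomaltase gene Sis -1.97 and the retinol-binding protein gene Rbp2 -1.91. All 12 enterocyte markers and 13 of 14 tuft cell markers were lower in members, as were 12 of 17 enteroendocrine markers, 11 of 11 hormone genes and 8 of 8 T cell markers.

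Of the goblet cell list, 8 of 11 genes were higher and 2 lower, but on total UMIs 2 were higher and 3 lower, so its direction depends on scaling. Muc2 averaged 1547 ± 653 CPM in members and 1551 ± 363 CPM in other cells, with a log2 ratio of 0.94 by the main scaling and -0.06 on total UMIs. Clca1, a secreted goblet cell protease, averaged 204 ± 133 CPM in members and 525 ± 196 CPM in other cells (SD, n = 4 libraries). Clca1 (log2 -0.50) and the lectin gene Zg16 (-0.43) were the 2 that were lower. Of the secretory precursor list, 7 of 8 genes were higher and 1 lower, against 5 higher and 1 lower on total UMIs. Atoh1 had a log2 ratio of 1.76, or 0.76 on total UMIs, and Spdef, which acts with it in goblet and Paneth cells, 1.71 or 0.72. Of the secretory and endocrine transcription factors, 14 of 50 were higher and 23 lower, against 7 and 37 on total UMIs. The largest ratio was that of Bhlha15, also called Mist1, a factor of cells with large secretory granules, with 3.78, or 2.76 on total UMIs.

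Of the stem cell list, 3 of 10 genes were higher and 5 lower, against none higher and 8 lower on total UMIs. Lgr5 had a log2 ratio of 0.64, which became -0.36 and did not pass on total UMIs, so its direction is not settled by these data. Of 8 cycling genes, 7 were lower and none was higher. Of the microfold cell list, 5 of 8 genes were higher and 2 lower, against 3 and 4 on total UMIs, and of the pan-epithelial list 1 of 8 was higher and 6 lower, against 0 and 7.

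The lists in this and the next paragraph are to be read beside the shares over all 16183 genes. Those were 19.8% higher and 24.8% lower, and on total UMIs most genes were lower. Of 17 activin and TGF-beta genes, 4 were higher and 4 lower, against 1 and 13 on total UMIs, so these counts were near the shares over all genes. Bambi, a decoy receptor that dampens this signal, had a log2 ratio of 4.75 (SE 0.17, edgeR adjusted p = 1.84e-09). It had 140, 107, 88.6 and 135 CPM in members of mutant 1, mutant 2, wild type 1 and wild type 2, against 8.49, 10.2, 8.43 and 7.81 CPM in other cells. Bambi averaged 115 CPM in low-UMI and 160 CPM in defensin-rich members but 13.4 CPM in goblet-cluster members. Of the BK channel partners, Lrrc26, a subunit that lets the channel open at resting voltage, had a log2 ratio of 1.66 (0.66 on total UMIs), and Kcnmb2 one of -1.42. Lrrc26 averaged 12.1 CPM in low-UMI, 37.8 CPM in defensin-rich and 86.1 CPM in goblet-cluster members, while Kcnma1 was highest in low-UMI members. The low-UMI value of Lrrc26 rests on few UMIs, since the whole list summed to 0 CPM in wild type 1 and at most 25.0 CPM elsewhere. The order of Kcnma1 is partly set by the selection, so the 2 orders are not compared further. Of 9 tested genes of the dystrophin complex, 1 was higher and 1 lower, against 0 and 7 on total UMIs.

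Of the exocytosis and neurosecretion list, 9 of 24 genes were higher and 11 lower, against 1 and 17 on total UMIs. Of the epithelial ion transport list, 5 of 21 were higher and 14 lower, against 2 and 17. The chloride channel gene Cftr had a log2 ratio of -0.76, and Guca2b, the hormone uroguanylin, 2.49, or 1.49 on total UMIs. Of 13 Notch pathway genes, 5 were higher and 3 lower, against 2 and 7. Of 13 mitochondrially encoded mRNAs, 7 were lower and none higher, against 13 lower on total UMIs. Low-UMI members went the other way, with a sum of 92811 to 130025 CPM, against 50132 to 58553 CPM in other cells. The sum was 12189 to 20747 CPM in defensin-rich and 33612 to 43628 CPM in goblet-cluster members. Of the integrated stress response list, 18 of 27 genes were higher and 2 lower with a median log2 ratio of 0.81, but on total UMIs 7 were higher and 9 lower with a median of -0.20. Nupr1, a stress-induced nuclear protein gene, was higher on both scales (log2 4.36 and 3.36), with 396 ± 74.1 CPM in members and 39.5 ± 12.8 CPM in other cells (SD, n = 4 libraries). By member group, Nupr1 averaged 416 CPM in low-UMI, 531 CPM in defensin-rich and 97.9 CPM in goblet-cluster members.

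Set against 1711 cells with at least 2 chromogranin UMIs, 6817 of 13471 genes (50.6%) passed by edgeR, 3166 higher (23.5%) and 3651 lower (27.1%) in members. On total UMIs 561 were higher and 10205 lower. All 17 enteroendocrine markers and all 12 tested hormone genes were lower, with median log2 ratios of -5.58 and -6.10, and this contrast was used by the selection through Chga and Chgb. The largest falls among abundant genes were those of Afp (log2 -7.92), the transcription factor Lmx1a (-7.62), the growth factor gene Nrg1 (-7.52) and Rab3c (-7.41), a GTPase of secretory vesicles. All 10 Paneth cell genes and all 11 goblet cell genes were higher in members on both scales. Mmp7 averaged 1574 CPM in members and 334 CPM in the chromogranin-positive cells, with a log2 ratio of 3.32. Rnase1 (3.66), the chemokine gene Ccl9 (3.61) and the calcium sensor gene Cracr2a (3.53) had the highest ratios. Of the 10 tested tuft cell markers none passed, but on total UMIs 6 were lower. The chromogranin-positive cells included 97 cells of the defensin-rich cluster, and 8035 genes passed when only enteroendocrine clusters were the comparison.

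Goblet-cluster members were compared, as values only, with other goblet-cluster cells of like depth. The members were spread unevenly over the 4 goblet clusters: 220 of 2117 cells, 142 of 1773, 45 of 1022 and 8 of 1336. The cluster with 8 members has Zg16, S100a6, Fcgbp, Clca1 and Fer1l6 among its leading genes, so the comparison also sets goblet clusters against each other. Of 11754 genes, 48 (0.408%) were more than 2-fold higher and 23 (0.196%) more than 2-fold lower in all 4 libraries. Of the 10 genes of the Paneth cell list, 5 were among the 48 higher genes (Defa17, Itln1, Lyz1, Defa24 and Mmp7), and other named higher genes included Tent5c, Lbh and Bex1. Lyz1 averaged 2932 CPM in goblet-cluster members and 649 CPM in the other goblet cells, with log2 ratios of 1.67, 2.14, 2.32 and 2.24 in mutant 1, mutant 2, wild type 1 and wild type 2. Mmp7 averaged 1562 and 554 CPM, with log2 ratios of 1.23, 1.35, 1.55 and 1.45. Itln1 averaged 4160 and 935 CPM, Defa17 2202 and 362 CPM, Rnase1 387 and 71.5 CPM, and Reg4, a secreted lectin, 311 and 73.3 CPM. In CPM of Mmp7 the goblet-cluster members were near the defensin-rich members (1655 CPM), while in Lyz1 they were far below them (48882 CPM). The defensin share of UMIs lowers the CPM of both genes in defensin-rich members, so the nearness in Mmp7 is a statement about CPM.

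Lgr5 averaged 71.0 CPM in goblet-cluster members and 20.3 CPM in other goblet cells of like depth, with log2 ratios of 1.06, 1.70, 3.84 and 1.65 in mutant 1, mutant 2, wild type 1 and wild type 2. Of the 11 goblet cell markers, 2 were among the 23 lower genes, Zg16 and Clca1, and the other 9 met neither limit. Zg16 averaged 7299 CPM in goblet-cluster members and 26266 CPM in the others, Clca1 572 and 1987 CPM, and the calcium-binding protein gene S100a6 321 and 852 CPM. Against all goblet-cluster cells that were not members, at any depth, Muc2 averaged 3613 ± 483 and 7018 ± 1188 CPM, and Fcgbp, which encodes a mucus protein, 3129 ± 538 and 8504 ± 1975 CPM (SD, n = 4 libraries). Atoh1 (238 ± 41.2 and 243 ± 33.3 CPM) and Spdef (105 ± 24.2 and 112 ± 33.4 CPM) differed by less than the spread between libraries. The doublet caller marked 16.4% of goblet-cluster members and 15.7% of the other goblet-cluster cells.

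**Figure D4:**
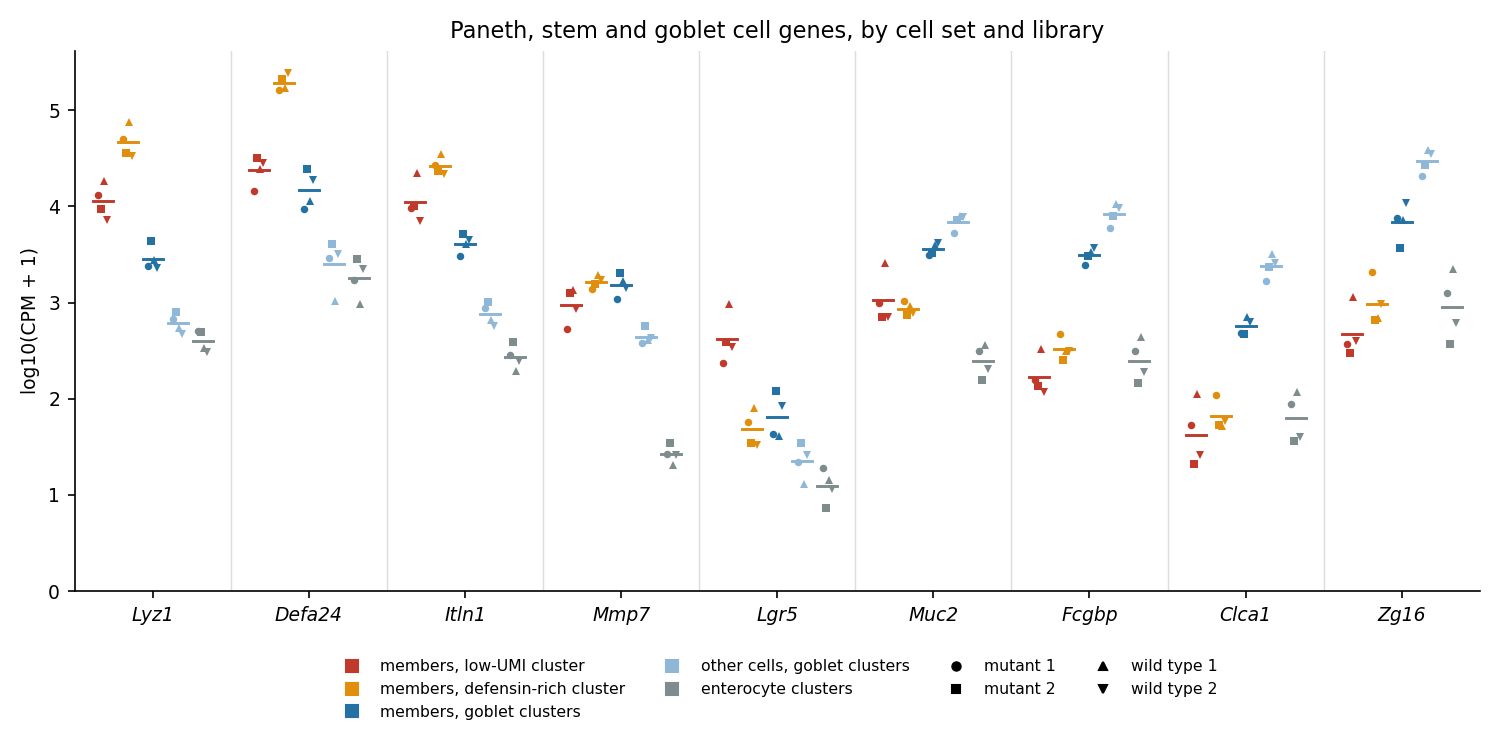
Paneth, stem and goblet cell genes in each cell set, in CPM on a log10 scale with 1 added; bars are the mean over 4 libraries and points the libraries. Goblet-cluster members lie above other goblet-cluster cells for Lyz1 (2932 and 618 CPM) and below them for Zg16 (7299 and 30203 CPM).

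Across single cells, the genes whose levels ran most closely with the summed selection genes were Ptprn2 (Pearson r = 0.58 over 32872 cells and 0.65 within the 1299 members), 5330417C22Rik (0.56 and 0.68), Plcb1 (0.55 and 0.77) and Arhgap24 (0.51 and 0.67). Asph (0.48 and 0.51), Gm609 (0.47 and 0.56), Cbfa2t3 (0.47 and 0.34), Car8 (0.47 and 0.45) and Ica1 (0.47 and 0.58) came next. Mmp7 had r = 0.48 over all cells but 0.08 within members. Cells of a library share its depth and free RNA, so these values are a description. Ptprn2 and Ica1 encode proteins of secretory granules.

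The share of members did not differ detectably between genotypes. It was 3.78% (95% exact binomial interval 3.44 to 4.15) in mutant 1 and 4.08% (3.68 to 4.52) in mutant 2, against 3.84% (3.30 to 4.44) in wild type 1 and 4.12% (3.70 to 4.57) in wild type 2. The mean was 3.93% ± 0.213 in mutant and 3.98% ± 0.196 in wild type libraries (SD, n = 2 each), a difference of -0.0449 percentage points. Within set A the difference was -0.0569, and within set B -0.0329. Permuting the genotypes over the libraries (exact, two-sided) gave p = 0.667, and 2 against 2 libraries cannot give less than 0.333. Without wild type 1, whose members were mostly goblet-cluster cells, the difference was -0.183, and without mutant 2 -0.195. It turned to 0.105 without mutant 1, to 0.0935 without wild type 2 and to 0.0891 and 0.0510 after thinning to 5000 and 2000 UMIs, so no direction is read from it. The mix of members differed more than their share. Defensin-rich cells made up 56.1% and 62.9% of members in mutant 1 and mutant 2, against 23.0% and 62.3% in wild type 1 and wild type 2. Goblet-cluster cells made up 32.4% and 22.4% of members in the mutant libraries, against 67.8% and 22.8% in the wild type libraries. Low-UMI cells made up 9.20% and 12.5%, against 6.90% and 12.5%. Wild type 1 stood furthest from the rest, while each share differed by less than 1 percentage point between mutant 2 and wild type 2.

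**Figure D5:**
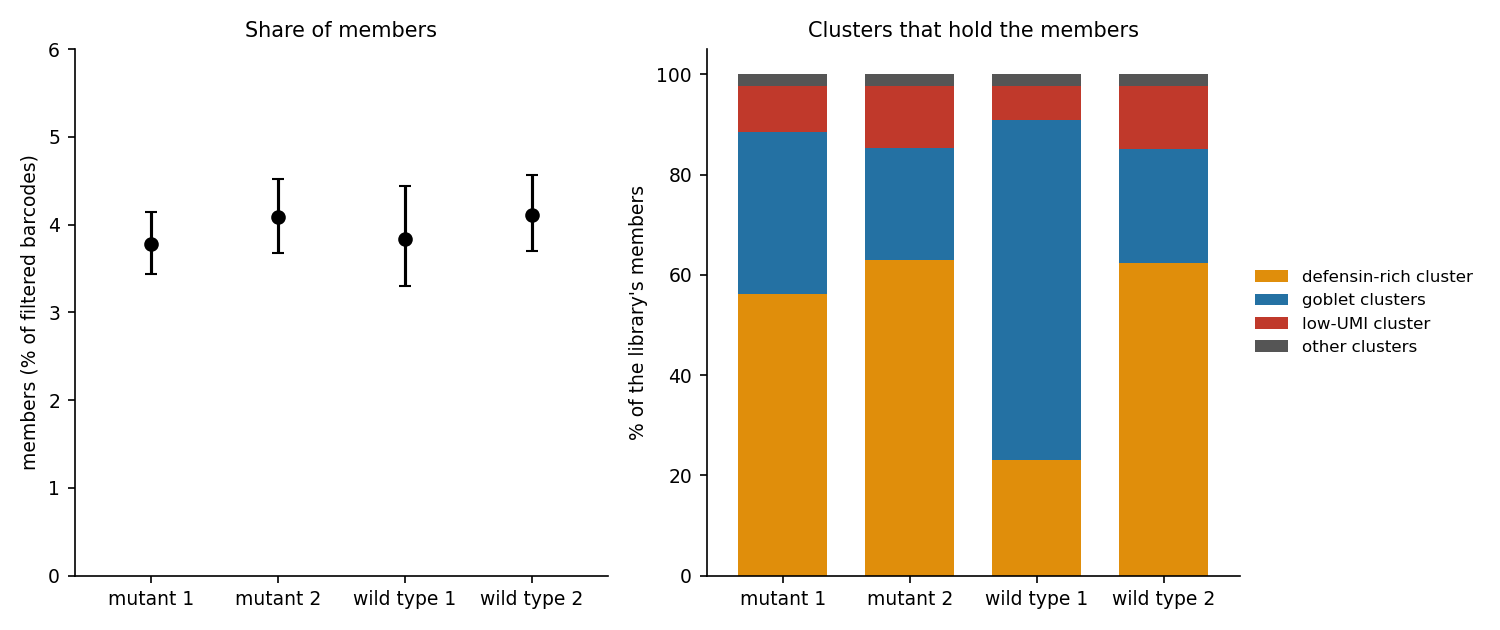
Left, members as a percentage of filtered barcodes in each library with 95% exact binomial intervals; right, the percentage of each library's members in each cluster group. The intervals of all 4 shares overlap (3.78% to 4.12%), and wild type 1 has the most goblet-cluster members (67.8%).

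Between genotypes, none of 11892 genes tested in the members passed (0%) by edgeR, and DESeq2 also called none, with 121 genes at an unadjusted edgeR p under 0.05. In simulated data of this design, 75 of 100 genes changed 4-fold were found and 5 of 100 changed 2-fold. The simulation gave every gene the same spread, changed only well-covered genes and held no difference in set or cell mix. It may therefore overstate what the test can find in these data. The following genes had the largest ratios in the same direction in both sets, as values only. Fabp6, the ileal bile acid-binding protein gene, had a log2 ratio of mutant over wild type of 2.78 within set A and of 1.03 within set B. In the same order, the defensin genes had log2 ratios of 0.99 and 0.98 (Defa20), 1.18 and 0.87 (Defa34), and 0.79 and 1.15 (Defa35), and Sis of 1.41 and 0.87. On the other side, in members as a whole, Clca1 had -0.77 and -0.34, Tff3, a goblet cell trefoil peptide gene, -0.46 and -0.57, Airn -0.62 and -0.35, Gm609 -0.55 and -0.36, and Arhgef38 -0.37 and -0.41. Defensin-rich cells made up fewer and goblet-cluster cells more of the members in wild type 1 than in mutant 1. In set B, goblet-cluster cells made up 22.4% of members in mutant 2 and 22.8% in wild type 2. The part of this mix in the values was not tested. In members outside the goblet clusters the log2 ratio was 0.321 for Clca1 and 0.0447 for Tff3, opposite in sign to that in all members, and in defensin-rich members alone it was 0.295 for Clca1.

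The selection genes themselves differed in direction between genotypes. Thsd7a had 30.8 and 21.9 CPM in members of mutant 1 and mutant 2, against 19.3 and 16.4 CPM in wild type 1 and wild type 2, a log2 ratio of 0.96 within set A and of 0.53 within set B. Kcnma1 had 107 and 85.5 CPM in the mutant libraries, against 143 and 114 CPM in the wild type libraries, with log2 ratios of -0.13 and -0.31. Habp2 had 85.7 and 72.9 CPM, against 75.2 and 74.4 CPM, with log2 ratios after TMM scaling of 0.48 and 0.08, so within set B its direction turns with the scaling. In members as a whole the Thsd7a and Kcnma1 values of the genotypes did not overlap, while those of Habp2 did. By member group, the Thsd7a values overlapped in low-UMI and in defensin-rich members but not in goblet-cluster members. Kcnma1 was higher in goblet-cluster than in defensin-rich members. Goblet-cluster cells made up 32.4% of members in mutant 1 and 67.8% in wild type 1, and 22.4% in mutant 2 and 22.8% in wild type 2. The part of this mix was not tested. These genes helped to choose the members, so no test is read from them.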

How the data were processed

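Single-cell RNA libraries (10x 3' kit) of sorted small-intestinal epithelial cells from 4 libraries were used. The authors deposited UMI counts per gene and barcode, which the file headers credit to Cell Ranger 7.0.0 for set A and to 7.1.0 for set B. The build was mm10, per the submitters' processing notes, and no source used here says whether introns were counted. The members and gene lists were chosen with earlier results of these data known.

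Counts were used as deposited. After the stated filters 11503, 8647, 4533 and 8189 barcodes remained in mutant 1, mutant 2, wild type 1 and wild type 2. Cells were clustered with scanpy 1.11.5 (Leiden, 24 clusters, without the selection and label genes), and clusters were named from the marker lists. The low-UMI cluster was taken as the unnamed cluster with the largest share of members. Doublets were marked as the highest Scrublet scores of each library, at 0.8% of its filtered barcodes per 1000 such barcodes, and were kept. Counts summed per library were tested with edgeR 4.0.16 (TMM, filterByExpr, quasi-likelihood, Benjamini-Hochberg), with DESeq2 1.42.0 as an alternative. CPM values are each gene's share of all UMIs of the summed cells, on the usual CPM scale. The fit was tested on simulated counts with the same spread for every gene. There it found 98 of 100 simulated 4-fold changes between members and other cells, and 27 of 100 that were 2-fold. Named genes were the 25 highest and 10 lowest ratios that passed in members against other cells with at least 50 CPM and 1 sign in all libraries, 10 per direction against chromogranin-positive cells, and 5 per direction of at least 100 CPM between genotypes. Spans came from GENCODE vM21 (32158 of 32285 features). The labels do not pair replicates; the sets served as the block in an alternative. Of barcodes with 30% or more mitochondrial UMIs, which were left out, 2, 2, 0 and 0 met the gene criteria in mutant 1, mutant 2, wild type 1 and wild type 2.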

Additional observations from a re-analysis of the deposited data

Results flagged for a closer look

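Several differences between mutant and wild type members had opposite signs in the sets, with log2 ratios after TMM scaling. Each set holds 1 library per genotype, so the difference between sets was not tested. The share of low-UMI members, mutant minus wild type, was 0.0830 percentage points within set A and -0.00404 within set B. The log2 ratio of mutant over wild type in members for Ptprt was 0.50 within set A but -0.12 within set B. For Pdzrn3 it was 0.76 within set A but -0.51 within set B. For Acvr1c it was 0.21 and -0.26, and for Sntb1 0.85 and -0.39 in the same order. For Acvr1c the sign within set A turns with the scaling, since its level in CPM was 67.4 in mutant 1 and 71.6 in wild type 1, and 59.0 in mutant 2 and 76.0 in wild type 2. Goblet-cluster cells, in which Sntb1 is low, made up 32.4% of members in mutant 1 and 67.8% in wild type 1. In mutant 2 and wild type 2 they made up 22.4% and 22.8%.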

How the results depend on the processing

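The difference in the share of members was -0.0449 percentage points, also with the sets as a replicate block (exact p = 0.5, the smallest that 2 pairs allow), and changed sign under several settings: 0.0891 after thinning to 5000 UMIs, 0.0510 after thinning to 2000 UMIs, 0.621 for defensin-rich members, 0.0395 for low-UMI members and 0.657 for members outside goblet clusters. It was -1.84 with at least 2 of the 6 genes and -0.702 for goblet-cluster members. Leaving out 1 library gave -0.195 to 0.105. The genes called in members against other cells numbered 13417 on total UMIs and 5586 to 7075 with 1 library left out, and against chromogranin-positive cells 10766 and 5097 to 6428. DESeq2 called 6574 genes against other cells. Between genotypes no setting called a gene, with 0 to 0 when 1 library was left out (that arm then has 1 library, assumed to vary like the other group, so this says little of stability), and the fit with the replicate block had 626 genes at an unadjusted p under 0.05. Of the named genes, Sst (log2 -0.38) and Gip (-0.96) did not pass against other cells of like depth, and between genotypes Tff3 (0.0447) and Clca1 (0.321) changed sign in members outside goblet clusters, Clca1 in defensin-rich members (0.295, and 0.265 with the replicate block) and Defa34 (-0.42) and Defa35 (-0.24) in low-UMI members. The other named values kept direction and call: 488 of 490 against other cells, 180 of 180 against chromogranin-positive cells and 174 of 180 between genotypes. Named genes were chosen for the same sign in all libraries or in both sets, so kept directions were partly set in advance. Between genotypes no named gene passed, so a kept call there means only that the gene stayed uncalled. The settings by member group, the total-UMI scale, thinning to 2000 UMIs and the goblet-cluster comparison were chosen after seeing the data. Low-UMI members number 12 in wild type 1, which limits their values there.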
